A study of Mus musculus with 10 samples.

Results

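The genes described here encode splicing factors and heterogeneous nuclear ribonucleoproteins (hnRNPs): protein-coding genes of the mouse whose symbols begin with Srsf and a digit, Hnrnp, Snrp, Sf3a or Sf3b in the GENCODE M21 annotation. There were 52 such genes among the 26227 genes listed in the files. They comprised 20 hnRNPs, 12 Sm and other small nuclear ribonucleoprotein (snRNP) proteins, 11 SR proteins and 9 subunits of the SF3A and SF3B complexes. Each was represented by 1 principal transcript, and its symbol alone, not its level, put it in the set. A total of 50 passed the filter on low values used for testing, which asked for 2 or more libraries at an RPKM of 1 or above. Srsf12 and Snrpn did not: Srsf12 reached at most 0.0270 RPKM, and Snrpn, a brain-enriched Sm protein, stood at 0.0440 to 0.113 RPKM in 9 libraries and at 1.07 in the first 120 h library.

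As background, introns are removed from pre-mRNA by the spliceosome. Its U1, U2, U4 and U5 snRNPs each carry a ring of Sm proteins, and the SF3A and SF3B complexes are parts of the U2 snRNP that hold it at the branch site. SR proteins bind exons and mostly promote use of the splice sites nearby, whereas hnRNPs coat nascent transcripts and often repress splice sites. In granulocytes, regulated intron retention and switches among these factors are known features of maturation.

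RNA was sequenced from ER-Hoxa9-Lys-GFP cells, cultured mouse myeloid cells of the C57BL/6 strain, kept in RPMI medium with serum and a conditioned medium as the source of stem cell factor. All groups carried the same Hoxa9 fusion to an estrogen receptor domain and the same GFP reporter named for lysozyme, and all came from 1 line, so no group was free of the transgenes. Estradiol (E2), which keeps the fused Hoxa9 active, was kept (the untreated group), withdrawn for 24 h and given back for 96 h (the 24 h group), withdrawn for 40 h and given back for 80 h (the 40 h group), withdrawn for 72 h and given back for 48 h (the 72 h group), or withdrawn for 120 h with none given back (the 120 h group). Each group had 2 libraries. The labels do not say whether these were separate cultures, so the p-values below rest on a spread between libraries that may be technical alone. Time without E2 and time since its return changed together between the 24, 40 and 72 h groups.

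The values were RPKM, reads scaled by transcript length and by the depth of the library, with 173580000 to 204360000 reads behind each library. Because RPKM are shares of a library, a gene can fall when others rise. The summed level of 7 progenitor markers, Kit, Meis1 and Hoxa9 among them, was 1593 to 1611 RPKM in the untreated libraries, 698 and 768 in the 72 h group and 174 to 201 in the 120 h group. Hoxa9 is also part of the fusion in this line, and reads from the 2 sources were not separated. The 7 did not all move together. By the test described below, 4 were lower and 1 higher at 72 h, and 6 lower and 1 higher at 120 h. Of all genes, 22.3% were called lower and 21.6% higher at 72 h, and 52.7% and 27.5% at 120 h. The sum over 8 granulocyte markers, Ltf and S100a9 among them, was 3.42 to 4.50 RPKM untreated, 291 and 525 in the 72 h group and 21193 to 21433 in the 120 h group, and that over 7 monocyte and macrophage markers was 5.21 to 5.72, 630 and 695 and 1224 to 1297. All 7 lymphocyte markers, 6 of 7 fibroblast markers and 5 of 7 erythroid and megakaryocyte markers stayed under 1 RPKM in every library. In bulk RNA, fewer cells of a type and less RNA per cell cannot be told apart, and the part of these markers in the results below was not tested. The 2 libraries of the 120 h group differed most, by a median of 0.25 on the log2 scale over genes, against 0.06 to 0.12 in the other groups. The tests below use 1 estimate of spread for all groups. Their standard errors and p-values may thus be too small for 120 h values and too large for the other comparisons. Array weights give less weight to libraries that vary more, 0.19 at 120 h against 2.59 untreated. With them, 44 calls of the set at 120 h against untreated were kept and 3 lost.

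The stretch of 150 bases before the start of transcription is shown for 6 genes whose levels carry the results below and whose stretch holds no annotated exon (RefSeq, GRCm38.p6, each read on the strand of its gene). Hnrnpa1, Hnrnpa0 and Hnrnpab were the 3 hnRNPs with the largest falls at 120 h, and Srsf2, Srsf6 and Hnrnpu were higher in the 72 h group and lower in the 120 h group. Capitals mark CCAAT on either strand (ATTGG on the other), the only one of 3 motifs searched that was found in these stretches. The other motifs were CACGTG, which is its own reverse complement, and GGAAGN, the core of ETS factor sites, both also on either strand, with overlapping matches counted for each motif.
Hnrnpa1: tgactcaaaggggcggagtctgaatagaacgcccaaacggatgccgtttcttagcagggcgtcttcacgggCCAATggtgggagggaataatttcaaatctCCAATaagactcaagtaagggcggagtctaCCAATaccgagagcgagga
Hnrnpa0: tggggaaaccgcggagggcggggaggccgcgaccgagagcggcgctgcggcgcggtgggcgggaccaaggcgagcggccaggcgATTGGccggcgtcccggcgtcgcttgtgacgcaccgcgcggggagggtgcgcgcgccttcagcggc
Hnrnpab: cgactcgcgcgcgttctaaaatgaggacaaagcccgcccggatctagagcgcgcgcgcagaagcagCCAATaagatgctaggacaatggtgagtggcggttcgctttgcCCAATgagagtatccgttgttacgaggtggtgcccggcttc
Srsf2: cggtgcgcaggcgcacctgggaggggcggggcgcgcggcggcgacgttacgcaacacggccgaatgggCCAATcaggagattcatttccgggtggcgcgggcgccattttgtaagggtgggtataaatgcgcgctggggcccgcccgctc
Srsf6: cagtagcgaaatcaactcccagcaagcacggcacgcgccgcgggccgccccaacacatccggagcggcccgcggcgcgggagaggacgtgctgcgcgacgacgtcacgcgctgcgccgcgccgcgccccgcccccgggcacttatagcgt
Hnrnpu: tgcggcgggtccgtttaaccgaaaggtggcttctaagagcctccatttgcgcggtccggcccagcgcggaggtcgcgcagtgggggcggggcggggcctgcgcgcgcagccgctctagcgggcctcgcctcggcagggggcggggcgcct
The stretches lie at chr15:103240247-103240396, plus strand (Hnrnpa1), chr13:58128557-58128706, minus strand (Hnrnpa0), chr11:51606882-51607031, minus strand (Hnrnpab), chr11:116853095-116853244, minus strand (Srsf2), chr2:162931358-162931507, plus strand (Srsf6) and chr1:178337816-178337965, minus strand (Hnrnpu). Hnrnpa1 holds 3 copies of CCAAT, at 19, 49 and 79 bases before its start, and Hnrnpab holds 2. Hnrnpa0 and Srsf2 hold 1 each, and Srsf6 and Hnrnpu hold none.

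The same motifs were counted in windows of 300 bases, from 250 before to 50 after the start, for the 46 genes of the set matched to the table and for all 32851 promoters in it. CCAAT was present in 22 of the 46 (47.8%), against 37.4% of all promoters. Of the 18 hnRNP promoters 13 held it (72.2%), against 4 of 11 SR, 3 of 10 Sm and other snRNP, and 2 of 7 SF3A and SF3B promoters. GGAAGN was present in 32 of the 46 (69.6%), against 71.3% of all promoters, and CACGTG in 5 (10.9%), against 7.15%. These are descriptions of the letters in those windows, with no test, and no binding was measured.

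In the 120 h group, genes of all 4 classes fell. Of the 50 tested, 45 were lower than in untreated cells, 2 were higher (Srsf5 and Hnrnpll) and 3 did not pass the test (Hnrnph2, Hnrnpul1 and Hnrnpul2), with limma on log2(RPKM + 1) and a Benjamini-Hochberg adjusted p under 0.05 over all genes tested. Of all 13004 genes, 52.7% were called lower and 27.5% higher in this comparison. The median log2 fold change was -0.87 over the 50 genes and -0.36 over all genes. A log2 fold change of -1 or below was found in 17 of the 45, against 3288 of the 6858 genes called lower among all 13004. Together the 52 genes held 1.32% and 1.31% of the RPKM of coding genes in the untreated libraries, and 0.81% and 0.75% in the 120 h libraries.

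The scaling of libraries moved these changes by a common amount. Median-of-ratios scaling sets the median log2 ratio between libraries near 0, over the genes with a value above 0 in all 10 libraries. With this scaling, the all-gene median was -0.03 and that of the 50 genes -0.47. Of the 50, 33 were then called lower and 5 higher, against 39.7% and 38.3% of all genes. The genes that lost their call were Hnrnpa2b1, Hnrnpdl, Hnrnpf, Hnrnpk, Hnrnpm, Sf3b1, Sf3b2, Sf3b3, Snrpb, Snrpb2, Srsf6 and Srsf9, and the point estimates of Hnrnpf, Sf3b1 and Sf3b2 turned positive. Hnrnph2, Hnrnpul1 and Hnrnpul2 were called higher under this scaling.

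**Figure D1:**
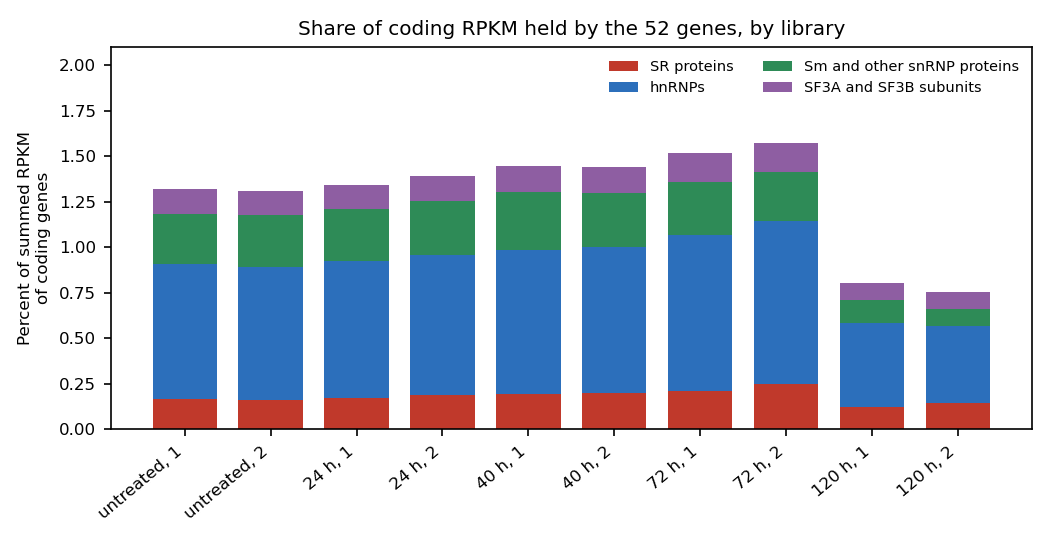
Percent of the summed RPKM of coding genes held by the 52 genes (vertical axis) in each of the 10 libraries (horizontal axis, group and replicate number), stacked by class. The bars stand between 1.31% and 1.57% in the untreated, 24 h, 40 h and 72 h libraries and at 0.81% and 0.75% in the 120 h libraries.

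**Figure D2:**
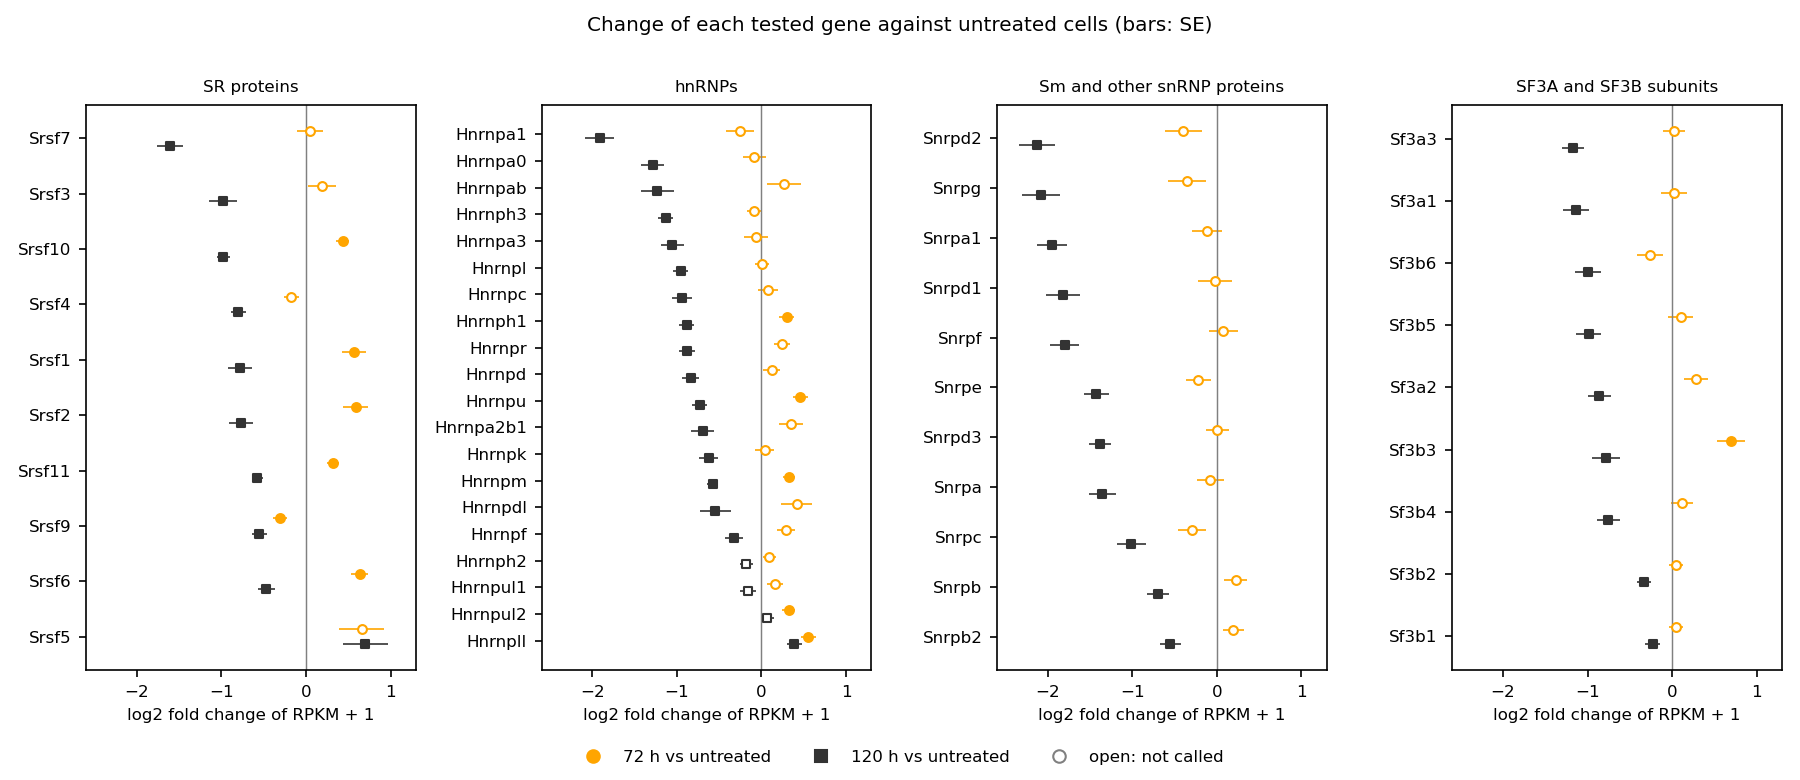
Log2 fold change of RPKM + 1 against untreated cells for the 50 tested genes (1 row each, ordered within their class by the 120 h change), with bars of 1 standard error from limma. Circles are the 72 h group, squares the 120 h group, and open symbols did not pass the test. The squares of the Sm and other snRNP proteins lie furthest to the left, with a median of -1.42, and the circles of several SR proteins and hnRNPs lie to the right of 0.

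The Sm and other snRNP proteins had the lowest class median in the 120 h group, -1.42 over 11 tested genes (-1.02 with median-of-ratios scaling). All 11 were called lower, against 52.7% of all genes. Of the 11, 9 had a log2 fold change of -1 or below, against 3288 of the 6858 genes called lower among all genes. Positions of genes are those of the principal transcript in GRCm38. Snrpd2 (chr7:19149722-19153542) encodes the Sm protein D2 of the ring carried by the U1, U2, U4 and U5 snRNPs. It measured 135 and 141 RPKM in the untreated libraries, 132 and 141 in the 24 h group, 158 and 138 in the 40 h group, 117 and 94.2 in the 72 h group and 39.7 and 23.8 in the 120 h group. Both 120 h libraries were far under all others, and the 72 h libraries were next lowest. The fall at 120 h was 2.13 on the log2 scale (SE 0.21, adjusted p = 2.9e-05, limma), and at 72 h the change was -0.39 (adjusted p = 0.17), which did not pass the test. Snrpg (chr6:86371304-86379328), the Sm protein G of the same ring, measured 225 and 264 RPKM in the untreated libraries, 228 and 259 in the 24 h group, 272 and 248 in the 40 h group, 212 and 172 in the 72 h group and 72.8 and 44.4 in the 120 h group. Its untreated libraries differed more from each other than those of Snrpd2, and both 120 h libraries again lay under the rest. Snrpg fell by 2.08 on the log2 scale in the 120 h group (SE 0.22, adjusted p = 4.0e-05, limma).

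Snrpa1 (chr7:66060338-66074587) encodes the U2 snRNP protein A'. It measured 62.1 and 61.6 RPKM in the untreated libraries, 64.2 and 65.4 in the 24 h group, 68.2 and 60.3 in the 40 h group, 60.2 and 54.0 in the 72 h group and 19.3 and 12.1 in the 120 h group, so both 120 h libraries lay well under the first 4 groups, the lowest of which was the 72 h group. Its fall at 120 h was 1.95 on the log2 scale (SE 0.18, adjusted p = 1.8e-05, limma). Of the remaining ring proteins, Snrpd1 fell by 1.82, Snrpf by 1.80, Snrpe by 1.42 and Snrpd3 by 1.38 on that scale, whereas Snrpb, which encodes the ring proteins B and B', fell by 0.69. The smallest change of the class was that of Snrpb2, the U2 snRNP protein B'', which fell by 0.55. Snrpa and Snrpc, which belong to the U1 snRNP, fell by 1.36 and 1.01. With median-of-ratios scaling, Snrpb (-0.29) and Snrpb2 (-0.16) did not pass the test, and the other 9 did.

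All 9 SF3A and SF3B subunits were called lower in the 120 h group, against 52.7% of all genes, with a median of -0.86. With median-of-ratios scaling the median was -0.46. Under it 6 were called lower and 0 higher, against 39.7% and 38.3% of all genes. The size of the change differed widely within the complexes. Sf3a3 (chr4:124714776-124732460), a subunit of SF3A, measured 65.1 and 64.7 RPKM in the untreated libraries, 67.1 and 69.0 in the 24 h group, 69.4 and 69.5 in the 40 h group, 67.0 and 64.9 in the 72 h group and 33.1 and 24.2 in the 120 h group. The first 4 groups lay close together, and both 120 h libraries were well under them. Sf3a3 fell by 1.17 on the log2 scale (SE 0.13, adjusted p = 4.6e-05, limma). Sf3a1 (chr11:4160350-4182541), the largest SF3A subunit, measured 38.4 and 37.7 RPKM in the untreated libraries, 40.5 and 36.9 in the 72 h group and 20.4 and 13.7 in the 120 h group, and Sf3b6 (chr12:4817544-4827659), which encodes the SF3B protein that contacts the branch point adenosine, measured 79.4 and 74.5 RPKM in the untreated libraries, 70.6 and 58.0 in the 72 h group and 44.5 and 32.6 in the 120 h group. In both genes the 120 h libraries lay under all others, and the second 120 h library was the lower one. Sf3a1 fell by 1.14 (adjusted p = 1.6e-04) and Sf3b6 fell by 0.99 (adjusted p = 4.0e-04, limma).

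Sf3b2 (chr19:5273932-5295455), the SF3B gene of highest level, measured 176 and 175 RPKM in the untreated libraries, 169 and 173 in the 24 h group, 174 and 176 in the 40 h group, 183 and 180.1 in the 72 h group and 144 and 134 in the 120 h group. The 120 h libraries were the lowest but stood nearer to the others than in Sf3a3. Sf3b2 fell by 0.33 on the log2 scale (adjusted p = 0.0049, limma), and Sf3b1, the subunit that grips the branch site duplex and is mutated in some myeloid neoplasms, fell by 0.23 (adjusted p = 0.034). With median-of-ratios scaling neither passed the test, and their values were 0.07 and 0.17. The call of Sf3b1 was also lost when any 1 of the untreated, 24 h or 40 h libraries, or the first 120 h library, was left out.

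Of the SR proteins, 9 of 10 tested were called lower in the 120 h group and Srsf5 was called higher, against 52.7% and 27.5% of all genes. The class median was -0.77, or -0.37 with median-of-ratios scaling. Under that scaling 7 were called lower and 1 higher, against 39.7% and 38.3% of all genes. Srsf7 (chr17:80200080-80207305), an SR protein with a zinc knuckle, measured 75.8 and 74.4 RPKM in the untreated libraries, 79.2 and 89.1 in the 24 h group, 92.7 and 84.7 in the 40 h group, 78.4 and 76.6 in the 72 h group and 29.0 and 19.8 in the 120 h group. The 120 h libraries lay far below the rest, and the 24 h and 40 h libraries slightly above the untreated ones. Srsf7 fell by 1.61 on the log2 scale at 120 h (SE 0.16, adjusted p = 2.4e-05, limma). Srsf3 (chr17:29032628-29043373), the smallest SR protein, which also acts in mRNA export, measured 126 and 122 RPKM in the untreated libraries, 148 and 135 in the 72 h group and 75.7 and 51.1 in the 120 h group, and fell by 0.98 (adjusted p = 5.8e-04). Srsf10 (chr4:135855747-135869908), a splicing repressor when dephosphorylated, measured 15.4 and 14.8 RPKM in the untreated libraries, 15.6 and 16.4 in the 24 h group, 18.5 and 18.6 in the 40 h group, 19.9 and 21.9 in the 72 h group and 6.91 and 7.49 in the 120 h group. Its highest libraries were those of the 72 h group and its lowest those of the 120 h group, with no overlap between these groups and the untreated one. Srsf10 fell by 0.98 at 120 h (adjusted p = 7.2e-06) after a rise of 0.44 at 72 h (adjusted p = 0.0025, limma).

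Srsf5 (chr12:80945585-80950503), an SR protein first known from regenerating liver, measured 114 and 106 RPKM in the untreated libraries, 104 and 132 in the 24 h group, 129 and 140.0 in the 40 h group, 141 and 216 in the 72 h group and 139 and 233 in the 120 h group. The second library was far above the first in both the 72 h and 120 h groups, and every library of these groups was above the untreated ones. The change was 0.70 on the log2 scale at 120 h (SE 0.27, adjusted p = 0.039, limma) and 0.66 at 72 h (adjusted p = 0.080). In this fit it passed the test at 120 h and not at 72 h, but other fits differed. Srsf5 was called at 72 h with a replicate block, without the 120 h group, in a fit of just the 2 groups and with array weights. In the last 2 of these settings its 120 h call was lost. The 120 h and 72 h groups differed by 0.04 (SE 0.27, adjusted p = 0.89). Without the second 120 h library the 120 h value was 0.33 and the call was lost, and it was also lost without either untreated or either 40 h library.

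Among the hnRNPs, 16 of 20 were called lower and 1 higher in the 120 h group, against 52.7% and 27.5% of all genes. The median was -0.78, or -0.38 with median-of-ratios scaling. Under that scaling 11 were called lower and 4 higher, against 39.7% and 38.3% of all genes. Hnrnpa1 (chr15:103240432-103244955), an abundant hnRNP that represses exon inclusion, measured 542 and 535 RPKM in the untreated libraries, 545 and 532 in the 24 h group, 540.0 and 536 in the 40 h group, 473 and 429 in the 72 h group and 171 and 118 in the 120 h group. The first 3 groups lay within a narrow range, the 72 h libraries slightly under it and the 120 h libraries far under it. Its fall at 120 h was 1.91 on the log2 scale (SE 0.17, adjusted p = 1.3e-05, limma). Hnrnpa0 (chr13:58125879-58128556), a related protein that binds AU-rich elements, measured 83.7 and 78.2 RPKM in the untreated libraries, 74.5 and 78.3 in the 72 h group and 37.9 and 28.0 in the 120 h group, and fell by 1.29 (adjusted p = 4.6e-05). Hnrnpab (chr11:51600100-51606847), another member of the A and B type, measured 204 and 205 RPKM in the untreated libraries, 253 and 239 in the 72 h group and 111 and 67.4 in the 120 h group. Its 120 h libraries differed from each other more than those of Hnrnpa0, and both were under every other library. Hnrnpab fell by 1.23 (SE 0.20, adjusted p = 4.6e-04, limma).

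Hnrnpa2b1 (chr6:51461124-51469845), the hnRNP gene of highest mean RPKM, encodes a protein that also sorts RNA into exosomes. It measured 563 and 561 RPKM in the untreated libraries, 576 and 606 in the 24 h group, 660.0 and 623 in the 40 h group, 715 and 717 in the 72 h group and 388 and 310.4 in the 120 h group. The 72 h libraries were the highest and the 120 h libraries the lowest. It fell by 0.69 at 120 h (adjusted p = 0.0016, limma), a call that was lost with median-of-ratios scaling (-0.28). Of the other hnRNPs called lower, the falls ranged from 0.33 (Hnrnpf) to 1.13 (Hnrnph3) on the log2 scale, and included the CA repeat binder Hnrnpl (-0.96), Hnrnpk (-0.62), Hnrnpc (-0.94) and Hnrnpu (-0.73).

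Hnrnpll (chr17:80029487-80062227), a paralog of Hnrnpl known for CD45 exon choice in lymphocytes, measured 29.1 and 27.3 RPKM in the untreated libraries, 31.8 and 30.1 in the 24 h group, 33.0 and 30.6 in the 40 h group, 40.6 and 43.1 in the 72 h group and 35.0 and 39.6 in the 120 h group. The 4 libraries of the 72 h and 120 h groups were above the other 6. It was higher by 0.55 at 72 h (SE 0.09, adjusted p = 0.0014, limma) and by 0.39 at 120 h (SE 0.09, adjusted p = 0.0031). The difference between these groups was -0.16 (adjusted p = 0.12) and did not pass the test. Hnrnpll and Srsf5 were the only ones of the 50 tested genes not called lower in the 120 h group against the 72 h group.

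**Figure D3:**
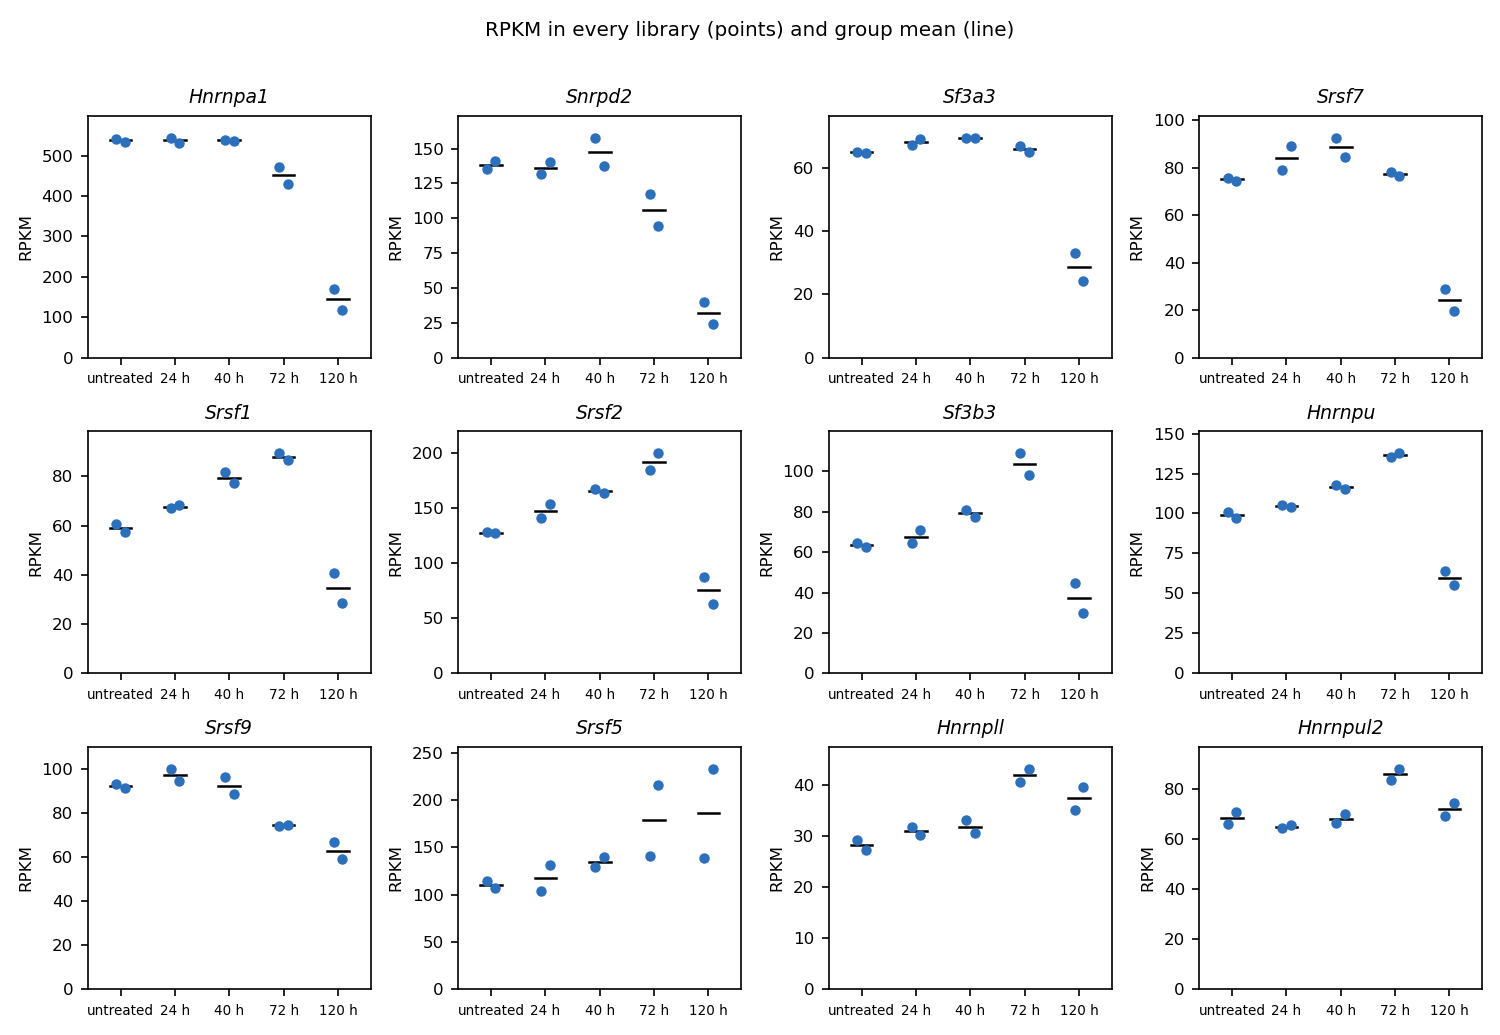
RPKM (vertical axis, starting at 0) in every library of the 5 groups (horizontal axis) for 12 genes of the set, where points are libraries and lines the means of 2 libraries. Hnrnpa1, Snrpd2, Sf3a3 and Srsf7 are lowest at 120 h, Srsf1, Srsf2, Sf3b3 and Hnrnpu are highest at 72 h and lowest at 120 h, and Srsf5, Hnrnpll and Hnrnpul2 are not lower at 120 h than untreated.

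In the 72 h group, with 48 h of E2 after withdrawal, 11 of the 50 genes were called higher than untreated and 1 lower, against 21.6% and 22.3% of all genes, so the share called higher was close to that of all genes. The median log2 fold change was 0.10, and no gene changed by 1 or more. The genes called higher were Srsf1, Srsf2, Srsf6, Srsf10, Srsf11, Hnrnph1, Hnrnpll, Hnrnpm, Hnrnpu, Hnrnpul2 and Sf3b3, and Srsf9 was called lower. By class, 5 of 10 SR proteins, 5 of 20 hnRNPs and 1 of 9 SF3A and SF3B subunits were called higher. No Sm or other snRNP gene of the 11 was called by limma, and none had an unadjusted p under 0.05 (51.9% of all genes did) or was called with limma voom on recovered reads. The genes given next with all their values were chosen after their values were seen.

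Srsf1 (chr11:88047373-88053755), the prototype SR protein, measured 60.6 and 57.3 RPKM in the untreated libraries, 66.9 and 68.4 in the 24 h group, 81.8 and 77.1 in the 40 h group, 89.4 and 86.5 in the 72 h group and 40.5 and 28.5 in the 120 h group. The level was higher in each successive group up to 72 h with no overlap between groups, and the 120 h libraries were the lowest. The change was 0.57 at 72 h (SE 0.14, adjusted p = 0.013, limma) and -0.78 at 120 h (adjusted p = 0.0010). Srsf2 (chr11:116849901-116853094), which is mutated in some myeloid neoplasms, measured 128 and 127 RPKM in the untreated libraries, 141 and 154 in the 24 h group, 167 and 163 in the 40 h group, 184 and 199 in the 72 h group and 87.3 and 62.9 in the 120 h group. Its groups had the same order as those of Srsf1, again with no overlap, and the change at 72 h was 0.59 (adjusted p = 0.012). Srsf6 (chr2:162931528-162937121) measured 45.8 and 43.6 RPKM in the untreated libraries, 46.4 and 54.4 in the 24 h group, 59.4 and 59.1 in the 40 h group, 64.7 and 75.4 in the 72 h group and 32.6 and 31.4 in the 120 h group, and was higher by 0.63 at 72 h (adjusted p = 0.0016, limma). Its 72 h libraries were above all others, and both of its 120 h libraries under all others.

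Sf3b3 (chr8:110810239-110846776), a scaffold subunit of SF3B that also occurs in chromatin complexes, had the largest rise of the set at 72 h. It measured 64.7 and 62.5 RPKM in the untreated libraries, 64.5 and 70.9 in the 24 h group, 80.9 and 77.5 in the 40 h group, 109 and 98.2 in the 72 h group and 44.6 and 29.8 in the 120 h group. The 72 h libraries were above all others and the 120 h libraries under all others. It was higher by 0.69 at 72 h (SE 0.16, adjusted p = 0.010, limma) and fell by 0.79 at 120 h (adjusted p = 0.0022), a fall that did not pass the test with median-of-ratios scaling (-0.39). Hnrnpu (chr1:178324343-178337797), a nuclear scaffold protein that also shapes chromatin, measured 101 and 97.2 RPKM in the untreated libraries, 105 and 104 in the 24 h group, 118 and 115 in the 40 h group, 135 and 138 in the 72 h group and 63.8 and 55.2 in the 120 h group. It had the same order of groups as Srsf1, with a change of 0.46 at 72 h (adjusted p = 0.0036).

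Srsf9 (chr5:115327177-115333080), a close relative of Srsf1, was the only gene called lower at 72 h. It measured 93.3 and 91.5 RPKM in the untreated libraries, 100.1 and 94.7 in the 24 h group, 96.3 and 88.7 in the 40 h group, 74.2 and 74.7 in the 72 h group and 66.6 and 59.1 in the 120 h group. The 72 h libraries lay under the first 3 groups and above the 120 h libraries. It fell by 0.31 at 72 h (adjusted p = 0.022, limma) and by 0.55 at 120 h (adjusted p = 4.2e-04). Hnrnpul2 (chr19:8820010-8834143), which acts at DNA breaks, measured 66.2 and 70.9 RPKM in the untreated libraries, 83.7 and 88.2 in the 72 h group and 69.5 and 74.5 in the 120 h group. The 72 h libraries were above both other groups, which overlapped. It was higher by 0.32 at 72 h (adjusted p = 0.012), and its 120 h value, 0.07 (adjusted p = 0.43), did not pass the test.

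These 72 h calls depended on the libraries used. Without the first or second untreated library, 7 or 6 of the 12 calls were kept, and without the first or second 72 h library 9 or 7. The calls of Srsf1 and Srsf9 were lost in all 4 cases, those of Hnrnph1 and Srsf2 in 3, those of Hnrnpul2 and Sf3b3 in 2 and that of Hnrnpm in 1. Srsf6, Srsf10, Srsf11, Hnrnpll and Hnrnpu were called in all of them. Without the 120 h group, or without either of its libraries, 20 were called higher and 5 lower, the latter being the Sm genes Snrpd2, Snrpe and Snrpg with Hnrnpa1 and Srsf9. Without that group 30.3% of all genes were called higher and 30.2% lower.

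In the 24 h and 40 h groups no gene of the set was called by limma in either direction. Of all genes, 0% were called lower and 0% higher at 24 h, and 3.36% lower and 0.930% higher at 40 h. The median log2 fold change of the 50 genes was 0.06 at 24 h and 0.14 at 40 h. None had an unadjusted p under 0.05 at 24 h, against 2.81% of all genes. At 40 h 7 of the 50 did, a smaller share than the 18.7% of all genes: Srsf1 (0.42), Srsf2 (0.37), Srsf4 (-0.24), Srsf6 (0.40), Srsf10 (0.28), Srsf11 (0.22) and Hnrnpu (0.23). Limma voom on recovered reads called none at either time. The 40 h count rested on the spread of the 120 h libraries: without the 120 h group, or without either of its libraries, 10 genes were called higher at 40 h (Srsf1, Srsf2, Srsf3, Srsf6, Srsf10, Srsf11, Hnrnpd, Hnrnpf, Hnrnpu and Sf3b3). Without that group 4.70% of all genes were called higher and 9.12% lower.

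Between the 72 h and 40 h groups, Hnrnpll (0.38) and Hnrnpul2 (0.33) were called higher at 72 h and Srsf9 (-0.31) lower, against 13.9% and 13.8% of all genes. All 3 calls were lost without the second 40 h library and without the second 72 h library, that of Hnrnpul2 also without the first 40 h library, and that of Srsf9 without any 1 of the untreated, 24 h, 40 h or 72 h libraries. Without the 120 h group 7 were called higher and 7 lower, against 23.1% and 23.6% of all genes. Between the 120 h and 72 h groups, 48 of the 50 genes were called lower and none higher, against 51.0% and 26.4% of all genes, with a median of -1.07. The only positive value was that of Srsf5, with an unadjusted p of 0.88, and limma voom on recovered reads called none higher. With median-of-ratios scaling the median was -0.71 and 38 of the 48 calls were kept, against 35.2% of all genes called lower and 37.0% higher. The 72 h and 120 h comparisons with untreated cells share their controls, so their values are given side by side above.

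The annotation marks some transcripts of these genes as retaining an intron or as targets of nonsense-mediated decay, 2 classes through which SR proteins and hnRNPs are known to limit their own levels. The ratio of the mean RPKM of such isoforms to that of the principal transcript was tested on the log2 scale. Isoforms share exons with the principal transcript, and a read may count for several, so the ratio can also move with coverage of the shared exons. Some isoforms, such as the decay isoforms of Hnrnpk and Srsf1, have no bases of their own outside the principal transcript, and that of Sf3b1 has 9.33% of its bases outside it and that of Srsf6 16.1%. For retained-intron isoforms, listed for 26 genes of the set, 2 ratios were higher and 0 lower at 72 h (Hnrnpa3 and Hnrnpm), against 11.0% and 4.32% of 4262 genes, and 1 had an unadjusted p under 0.05 in the lower direction (limma). At 120 h 3 were higher (Hnrnpm, Sf3b1 and Sf3b4) and 3 lower (Hnrnpr, Snrpa and Snrpd3), against 23.5% and 9.31%. The medians over the genes of the set, 0.02 and 0.03, stood close to those over all genes, 0.03 and 0.04.

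For isoforms marked for nonsense-mediated decay, listed for 20 genes of the set, 3 ratios were higher and 0 lower at 72 h (Hnrnpdl, Sf3b1 and Srsf6), against 10.1% and 2.99% of 2106 genes, and again 1 had an unadjusted p under 0.05 in the lower direction. At 120 h 4 were higher (Sf3b1, Srsf4, Srsf6 and Srsf11) and 1 lower (Hnrnpu), against 17.0% and 8.26%. In Srsf6 the log2 ratio was 0.26 and 0.31 in the untreated libraries, 0.21 and 0.29 at 24 h, 0.34 and 0.33 at 40 h, 0.48 and 0.51 at 72 h and 0.48 and 0.45 at 120 h. The 72 h and 120 h libraries overlapped and lay above the others, and the untreated and 24 h libraries overlapped. The change was 0.21 at 72 h (adjusted p = 0.020, limma) and 0.18 at 120 h (adjusted p = 0.014). In Srsf4 the log2 ratio was -1.13 and -1.14 untreated, -0.98 and -0.92 at 72 h and -0.82 and -0.70 at 120 h, with no overlap between these 3 groups, and the change at 120 h was 0.37 (adjusted p = 0.0085, limma). The levels of the decay isoforms themselves, which were not tested, differed among these 4 genes. That of Sf3b1 measured 79.4 and 79.9 RPKM untreated and 83.2 and 92.0 at 120 h, so both 120 h libraries were higher. In the other 3 genes the decay isoforms were not higher at 120 h. Their mean was 36.4 and 36.4 RPKM untreated and 26.4 and 27.5 at 120 h in Srsf11. In Srsf4 it was 17.4 and 18.5 RPKM untreated and 13.2 and 12.8 at 120 h. In Srsf6 the decay isoform measured 55.1 and 54.4 RPKM untreated, 90.4 and 108 at 72 h and 45.8 and 43.2 at 120 h.

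Other genes of the splicing machinery numbered 159 in 10 lists, of which 153 were tested in the same fit. At 120 h 116 were called lower and 9 higher, with a median of -0.64, against 52.7% and 27.5% of all genes and a median of -0.36. With median-of-ratios scaling 76 were called lower and 21 higher, with a median of -0.26, against 39.7% and 38.3% of all genes. In the snRNP assembly list, 16 of 18 genes fell, with a median of -1.20 (-0.91 with median-of-ratios scaling). Prmt5 encodes the enzyme that methylates Sm proteins before they are loaded by the SMN complex. It measured 68.5 and 69.0 RPKM in the untreated libraries, 69.2 and 62.2 in the 72 h group and 13.1 and 6.91 in the 120 h group and fell by 2.73 on the log2 scale (SE 0.22, adjusted p = 8.2e-06, limma). The 120 h libraries were far under the rest, which lay close together. Gemin8 (-2.30) and Gemin6 (-2.14), subunits of the SMN complex, had the next largest falls, and Gemin7 (-0.05) and Tgs1 (-0.18) did not pass the test.

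All 8 genes of the branch site recognition list fell at 120 h, led by U2af1 (-1.20), the small U2AF subunit that reads the 3' splice site, Phf5a (-1.01) of SF3B and Puf60 (-0.76). Of the U1-associated list 8 of 9 fell, with Prpf40b (-1.93), Snrnp70 (-1.22) and Luc7l (-0.86) the largest. Of the 10 LSm proteins, relatives of the Sm proteins that bind U6 and decaying mRNA, 9 fell, most of all Lsm7 (-2.27), Lsm2 (-1.74) and Lsm3 (-1.48), and Lsm10, an LSm protein of the histone pre-mRNA processing U7 particle, was not called (-0.14). In the tri-snRNP list 19 of 20 fell, with Snu13 (-1.88), Ppih (-1.63) and Snrnp40 (-1.27) largest and Prpf38b (-0.32) not called. With median-of-ratios scaling the genes called lower and higher numbered 7 and 1 for branch site recognition, 4 and 1 for the U1-associated list, 7 and 0 for the LSm proteins, 13 and 0 for the tri-snRNP and 14 and 1 for snRNP assembly. Of all genes, 52.7% were called lower and 27.5% higher at 120 h, or 39.7% and 38.3% with that scaling. The U1-associated share called lower under it, 4 of 9, was close to that of all genes.

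The list of the Prp19 complex and spliceosome helicases was mixed, with 17 of 24 called lower and 3 higher at 120 h. Of all genes, 52.7% were called lower and 27.5% higher. Prpf19 (-1.65), Ddx39b (-1.15) and Isy1 (-0.94) had the largest changes, Dhx38 (0.54), Prpf18 (0.39) and Slu7 (0.32), factors of the second step of splicing, were the 3 called higher, and Bud31 (-0.22) and Syf2 (0.17) were not called. The median of this list was -0.35, and with median-of-ratios scaling it was 0.04, with 8 called lower and 6 higher. Both shares were smaller than those of all genes under that scaling, 39.7% and 38.3%. In the minor spliceosome list 6 of 8 tested fell, with Snrnp25 (-1.31), Pdcd7 (-0.62) and Zcrb1 (-0.60) largest, and Zrsr2 (-0.06) and Rnpc3 (0.16) were not called. Under median-of-ratios scaling 2 of its 8 tested genes were called lower and 2 higher, smaller shares than those of all genes. In the exon junction complex list 7 of 9 fell, with Magoh (-1.27), Magohb (-1.11) and Eif4a3 (-1.07) largest, and Acin1 (-0.05) and Casc3 (-0.16) were not called. Under that scaling 6 of the exon junction complex genes were called lower and 0 higher.

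Of 17 tested SR protein kinases and related SR proteins, 8 fell and 9 did not pass the test at 120 h, a share lower that was close to the 52.7% of all genes. Srpk1, a kinase that phosphorylates SR proteins in the cytoplasm, measured 28.8 and 29.0 RPKM in the untreated libraries, 19.6 and 26.4 in the 72 h group and 5.17 and 7.49 in the 120 h group and fell by 2.05 (SE 0.18, adjusted p = 1.2e-05, limma). Its 120 h libraries lay under all others, and the first 72 h library was the next lowest. Tra2b (-0.91) and Rsrc1 (-0.79) followed, while Son (0.33) and Srrm2 (0.09), the scaffolds of nuclear speckles, were not called. The median of this list was -0.30 and turned positive, 0.10, with median-of-ratios scaling, under which 3 were called lower and 2 higher. That scaling called 39.7% of all genes lower and 38.3% higher.

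The list of other splicing regulators held 6 of the 9 genes called higher at 120 h, beside 18 called lower of 30 tested. Of all genes, 27.5% were called higher and 52.7% lower. The median of this list was -0.49, or -0.08 with median-of-ratios scaling. Under that scaling 12 of the 30 were called lower and 8 higher, against 39.7% and 38.3% of all genes. The share called lower was then close to that of all genes. Mbnl1, a regulator of alternative exons, measured 25.2 and 25.7 RPKM in the untreated libraries, 27.0 and 28.1 in the 24 h group, 34.4 and 34.3 in the 40 h group, 69.6 and 75.8 in the 72 h group and 81.1 and 83.3 in the 120 h group. Levels in the 72 h and 120 h groups were well above those of the other groups, and the 40 h libraries stood above the untreated ones. It was higher by 1.48 at 72 h (adjusted p = 2.1e-06) and 1.65 at 120 h (SE 0.07, adjusted p = 2.7e-07, limma), and also at 40 h (0.42, adjusted p = 0.018). Ptbp3, a polypyrimidine tract binding protein known from blood cells, measured 40.4 and 40.8 RPKM in the untreated libraries, 95.5 and 93.6 in the 72 h group and 124 and 114 in the 120 h group, and was higher by 1.52 at 120 h (adjusted p = 3.4e-06). Its paralog Ptbp1, the widely expressed family member, measured 222 and 214 RPKM in the untreated libraries, 245 and 231 in the 72 h group and 102 and 68.2 in the 120 h group and fell by 1.38 (adjusted p = 8.1e-05). The paralogs thus had opposite directions, with no overlap between the untreated and 120 h libraries in either gene, and both calls were kept with median-of-ratios scaling (1.93 and -0.97).

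Mbnl3 (0.94), Qk (0.69), Celf2 (0.65) and Mbnl2 (0.40) were the other regulators called higher at 120 h. Ybx1, an abundant RNA-binding protein with a cold shock domain, measured 523 and 524 RPKM in the untreated libraries, 601 and 518 in the 72 h group and 236 and 143 in the 120 h group and fell by 1.51 (adjusted p = 2.4e-04, limma). Sfpq, a paraspeckle protein, was higher at 72 h (0.79, adjusted p = 0.0024) and was not called at 120 h (-0.21), and Rbm39 was not called at 120 h (0.08). At 72 h, 41 of the 153 genes were called higher and 11 lower, with a median of 0.13, against 21.6% and 22.3% of all genes, and 12 of the 41 were in this list. At 40 h Mbnl1 and the paraspeckle gene Pspc1 (0.42, adjusted p = 0.030) were the only genes of the lists called, and at 24 h limma called none. Ptbp1, Celf2, Mbnl2, Mbnl3, Qk, Dhx38, Prpf18 and Slu7 were given here beyond the rule for named genes, after their values were seen.

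**Figure D4:**
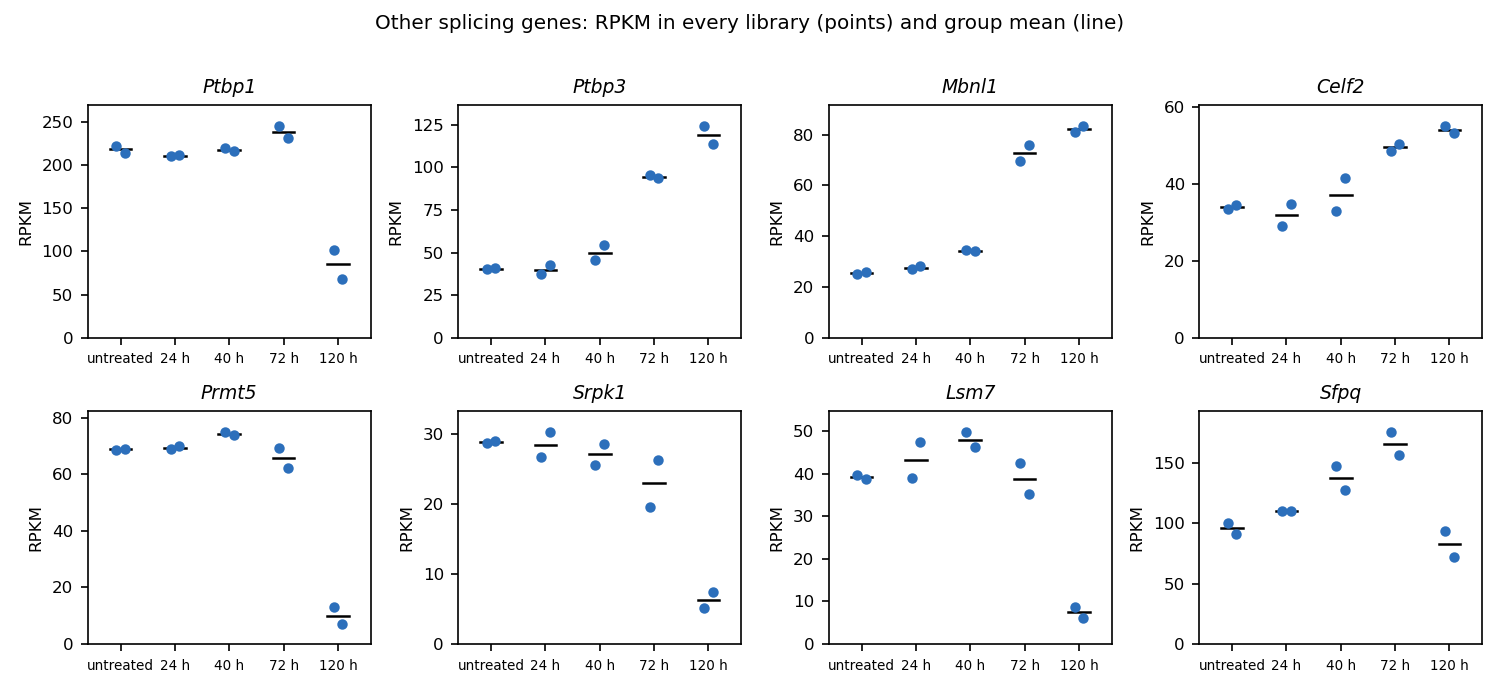
RPKM (vertical axis, starting at 0) in every library of the 5 groups (horizontal axis) for 8 other splicing genes, where points are libraries and lines the means of 2 libraries. Ptbp3, Mbnl1 and Celf2 are highest at 120 h, Ptbp1, Prmt5, Srpk1 and Lsm7 are lowest at 120 h, and Sfpq is highest at 72 h.

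Several of these genes are uncertain as single genes, because the sources used here do not give whether counting used strand or how shared reads were treated. Of the 52 transcripts, 23 shared over 10% of their 50-base windows with transcripts of other genes. The share was 91.0% for Hnrnpa3, 89.5% for Snrpf, 67.3% for Hnrnpf, 65.4% for Srsf4, 51.2% for Sf3b4 and 46.4% for Hnrnpa1, whose main partner was the gene model Gm10052. The exons of Snrpf overlapped Ccdc38 on the opposite strand over 65.9% of its bases, and those of Srsf4 overlapped Gm12992 over 67.9%. Srsf2 overlapped Mettl23 and Hnrnpab overlapped Phykpl on the opposite strand, and Hnrnpm overlapped March2 on the same strand. Within the 120 h group the first library was higher in 41 of the 50 genes, against 56.0% of all genes. The same count was 39 at 40 h (44.9% of all genes) and 34 untreated (44.4%). It was 29 at 72 h (45.7%) and 15 at 24 h (39.6%). The part of these differences in the results was not tested beyond leaving out each library.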

How the data were processed

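The authors deposited 1 file of RPKM per Ensembl transcript for each of the 10 libraries, per the file headers. The submitters' processing notes name STAR and the build GRCm38. How reads were counted, with which annotation release, strand setting and filter, is not stated in the labels or file headers. Of 79535 transcripts listed, 77720 (97.7%) were found in GENCODE M21. The other 1815 carried 2.64 to 3.24% of a library's RPKM. Low values were whole multiples of 1 step per library, which gave the reads behind each library (99.97 to 100% of tested values came out whole within 0.1 reads).

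The single transcript of a gene was its principal coding one by APPRIS, then by CCDS and length. Fold changes are on the log2(RPKM + 1) scale, which understates those of low genes. With limma 3.58.1 (trend, R 4.3.3), 13004 genes that reached an RPKM of 1 in 2 or more libraries were tested 2-sided in 1 fit of the 10 libraries on group (5 residual and 3.04 prior degrees of freedom). P-values were adjusted by Benjamini-Hochberg over these genes in each of 6 comparisons, and a gene was called at an adjusted p under 0.05. The procedure was tested on simulated data. The 2 libraries of each group differed beyond sampling noise, so none was treated as a duplicate. On recovered reads, limma voom called 6854 genes lower and 3571 higher at 120 h, 2910 and 2858 at 72 h, 412 and 139 at 40 h, and 0 and 0 at 24 h.

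By rule, values were given for the 3 genes of each class with the largest 120 h change, the gene of highest mean RPKM, genes called against most of their class and any called at 24 h or 40 h. In the lists of other splicing genes, up to 3 called genes of largest change and up to 2 uncalled genes of highest level were named. The members, lists and rules were chosen with earlier results of these data known. Alternatives were a pseudocount of 0.1, no filter, median-of-ratios scaling, quantile normalization, fits on fewer groups, array weights, a replicate block, other choices of transcript, voom and leaving out each library.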

Additional observations from a re-analysis of the deposited data

Results flagged for a closer look

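For 9 genes the difference between the 120 h and 72 h groups was called while their changes against untreated cells were called in opposite directions, higher at 72 h and lower at 120 h. They were chosen by that pattern, and both comparisons share the untreated libraries. Of all genes, 21.6% were called higher at 72 h and 52.7% lower at 120 h. The share of all genes with both calls was not counted, so whether 9 of the 50 is unusual is not known. The 120 h value minus the 72 h value on the log2 scale was -1.48 for Sf3b3, -1.41 for Srsf10, -1.36 for Srsf2 and -1.34 for Srsf1. It was -1.19 for Hnrnpu, -1.18 for Hnrnph1, -1.10 for Srsf6, -0.90 for Hnrnpm and -0.90 for Srsf11. For 3 of them (Hnrnpm, Sf3b3 and Srsf6) the fall against untreated cells was not called with median-of-ratios scaling. All 9 differences between the 120 h and 72 h groups were called in all the alternative fits of that comparison, scalings and left-out libraries included. Because the 9 were chosen by their calls in these same libraries, this is no separate support for the pattern. In that comparison 48 of the 50 genes were called lower.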

How the results depend on the processing

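For the 16 genes named by rule, 452 of 480 log2 fold changes under the alternatives kept both direction and call, 17 gained a call, 8 lost it and 3 changed sign. Those 3 were Sf3b2 at 120 h with median-of-ratios scaling (0.0735), and 2 uncalled 72 h values that left-out 72 h libraries moved across 0, Sf3a1 (-0.0435 to 0.0903) and Sf3a3 (-0.000178 to 0.0451). A group that loses a library keeps 1, assumed to vary like the other groups. Over left-out libraries the 45 genes called lower at 120 h ranged from 42 to 45, and the 48 called lower against the 72 h group from 44 to 48.

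At 40 h, 0 called lower became 1 in a fit of just the 2 groups and with array weights. The 0 called higher ranged from 0 to 10 over left-out libraries, with 10 on leaving out either 120 h library, and were 12 in the fit of 2 groups, 10 without the 120 h group and 12 with array weights. At 72 h, in that order of settings, 1 called lower became 2, 5 and 4, and 11 called higher became 17, 20 and 19. Left-out libraries gave 0 to 5 and 6 to 20, where either 120 h library gave the highest value. Leaving out any 1 untreated or 72 h library gave the 0, and either untreated or the second 72 h library gave 7, 6 and 7 called higher. Between 72 h and 40 h, 1 called lower became 5, 7 and 5 and ranged from 0 to 7 over left-out libraries. The 2 called higher became 7 without the 120 h group, 5 with array weights, 6 with quantile normalization and 4 with the transcript of highest mean RPKM, and ranged from 0 to 7. Either 120 h library gave the 7, and the second 40 h and second 72 h libraries gave the 0. The 2 called higher at 120 h became 1 with no filter, in the fit of 2 groups, with array weights and without either untreated library, either 40 h library or the second 120 h one (range 1 to 2), and 5 with median-of-ratios scaling. The fits without the 120 h libraries leave their spread out by construction. For the others the cause was not tested.

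For retained-intron ratios at 72 h, 0 called lower ranged from 0 to 1 over left-out libraries (1 without either 120 h one). The 2 called higher ranged from 0 to 2 (0 without the second untreated or second 72 h one), and were 1 with a pseudocount of 0.1, no filter or median-of-ratios scaling. At 120 h, 3 called lower ranged from 0 to 3 (0 without either untreated library) and were 0 with a pseudocount of 0.1, and 3 called higher ranged from 0 without the second untreated library to 7 without the first 120 h one. For decay isoforms, 3 called higher at 72 h ranged from 0 (without any 1 untreated or 72 h library) to 5 (without either 40 h one). At 120 h, 1 called lower ranged from 0 to 1 and was 0 with a pseudocount of 0.1, and 4 called higher ranged from 1 without the first untreated library to 5.

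The replicate numbers were not treated as pairing in the main fit, since the labels tie them to no shared origin. The correlations of same-numbered deviations were all positive, from 0.03 to 0.64. They were highest between the 72 h and 120 h groups (0.64), the 40 h and 120 h groups (0.41) and the 40 h and 72 h groups (0.36). A component shared by same-numbered libraries of these groups is therefore possible, and its source was not tested. With a replicate block, 14 were called higher and 1 lower at 72 h, 2 and 46 at 120 h, and 2 and 3 between 72 h and 40 h, and the decay isoform ratio called lower at 120 h left 0. The 48 genes called lower in the 120 h group against the 72 h group kept their calls with that block. With 2 libraries a group, a change that was not called is not shown to be absent.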

Other observations

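Of the 153 genes in the splicing lists, 9 were called higher in the 120 h group than in the 72 h group with limma, beside 126 called lower, against 26.4% and 51.0% of all genes. They were chosen after their values were seen. Mbnl1, Mbnl2, Ptbp3, Qk, Dhx38 and Slu7 were also above untreated cells at 120 h, whereas Lsm10, Syf2 and Srpk2 had fallen at 72 h and were not called at 120 h. Lsm10 measured 16.1 and 14.9 RPKM in the untreated libraries, 16.0 and 14.8 in the 24 h group, 14.2 and 13.1 in the 40 h group, 9.37 and 7.74 in the 72 h group and 14.3 and 13.7 in the 120 h group. Both 72 h libraries were under all others. Its change was -0.79 at 72 h (SE 0.10, adjusted p = 4.2e-04) and -0.14 at 120 h (adjusted p = 0.23, limma). Srpk2, a kinase of SR proteins, measured 22.0 and 21.4 RPKM in the untreated libraries, 19.7 and 19.6 in the 24 h group, 15.8 and 18.4 in the 40 h group, 12.2 and 14.4 in the 72 h group and 16.2 and 23.7 in the 120 h group. It was lowest in the 72 h group, and its 120 h libraries differed widely, with the second above all others. Srpk2 fell by 0.67 at 72 h (adjusted p = 0.011), and its 120 h value was -0.14 (adjusted p = 0.45, limma). With median-of-ratios scaling the 120 h values of Lsm10 (0.25) and Srpk2 (0.25) were positive and not called, and that of Syf2 (0.57) was called higher.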
